A study of Mus musculus with 24 samples.

Results

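The genes that carry glucose into the cell and turn it into pyruvate, lactate, pentose and glycogen were followed across 7 mouse cell lines. The set held 40 genes, listed by symbol for glucose and lactate transport, glycolysis, the pyruvate dehydrogenase kinases, the pentose phosphate pathway and glycogen synthesis, and a probe belonged to a gene if its RefSeq transcript carried that symbol. They were 40 of the 22881 gene symbols on the array and were covered by 69 probes, with several probes for 20 genes. Of the 40, 39 were well above background on every array of at least 1 line and 35 on all 24 arrays. Pdk4, a kinase that restrains pyruvate dehydrogenase, was above background only on D replicate 3 and was tested nowhere. Pgam2, the muscle phosphoglycerate mutase, was above background on every array of the DB lines alone.

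Total RNA was hybridised to 24 single-colour Agilent arrays, 1 sample per array. The 5 melanoma lines carry the names B16F1-GFP-M (M, 3 arrays), B16F1-GFP-D (D, 4), B16F1-GFP-DB#1 (DB#1, 4), B16F1-GFP-DB#2 (DB#2, 3) and B16F1-GFP-DB#3 (DB#3, 3), where GFP stands for green fluorescent protein and B16F1 for a mouse melanoma. All 5 were grown in DMEM with serum. In the study M is the parent of the others, D came back from mice after a long dormant phase, and the DB lines were derived onward from brain sites. The other 2 lines, M0 (4 arrays) and J365 (3), are labelled myeloid cells, and their array titles carry the tag p20. The study's methods describe a parental myeloid leukemia line and a dormant one, expanded in culture after isolation from mice, but no source used here ties the names M0 and J365 to them, and a culture medium is stated for the melanoma lines alone. No source says that arrays of a line came from separate cultures, so the p-values measure the spread between these arrays, which may be technical.

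Glycolysis splits glucose into pyruvate, and its pace is set mainly at hexokinase, phosphofructokinase and pyruvate kinase, with the glucose carriers ahead of them. Lactate dehydrogenase then converts pyruvate to lactate, which leaves the cell through monocarboxylate carriers, while the pyruvate dehydrogenase kinases limit how much pyruvate enters the mitochondria and the pentose phosphate pathway diverts glucose 6-phosphate to NADPH and ribose. Tumour cells often run this pathway fast even with oxygen present, and many of its genes are textbook targets of the hypoxia-inducible factors and of Myc.

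Values below are normalized log2 signals, meaning that the 75th percentile of each array was subtracted from the log2 intensity of a gene's brightest probe, so that a difference of 1 is a 2-fold change. Calls need an adjusted p under 0.05 in limma's moderated test, with Benjamini-Hochberg adjustment over all genes tested. Between 43.6% and 53.8% of probes were well above background on 23 arrays, D replicate 1 being the lowest, against 89.9% on D replicate 3, which was the lowest D array for 30 of the 35 genes above background throughout, while D replicate 1 was the highest for 22. The same counts over all genes were not computed, so these are not shown to be particular to the set. On the 17 melanoma arrays 12 genes of pigment synthesis were all above background, with a mean of 5.36 to 6.58, against -4.42 to -4.17 on the 7 myeloid arrays. For 12 blood cell genes the mean was 2.01 to 3.00 in the myeloid lines and -5.30 to -2.66 in the melanoma lines (at most -4.37 without D replicate 3). The myeloid arrays also held 5 or 6 of 8 macrophage genes above background (mean -2.27 to -1.60). The melanoma arrays held 2 to 6 (mean -4.76 to -2.53), or 2 to 3 without D replicate 3 (at most -3.51). In the melanoma lines 8 brain cell genes (-4.11 to -1.52, or -3.33 without D replicate 3) and 8 fibroblast genes (-4.98 to -3.00, or -3.97) had low means. D replicate 3, however, held 10 of the 12 blood genes above background. It also held 8 of the 8 brain, 7 of the 8 fibroblast and 6 of the 8 macrophage genes. As 89.9% of all its probes were above background, these counts do not set the marker genes apart. The part of such cells in any result was not tested. The titles of 1 M0 array and 1 J365 array carry no replicate number. They are called replicate 4 here, and both stood apart on many of the 40 genes, as described with the myeloid lines.

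Among the related lines, few of the 40 genes moved. In D against M, 1 of 38 tested genes was called, Slc16a3, which was higher in D, beside 2.97% of all genes tested. DB#1 against M gave 2 of 39 (Slc16a3 and Hk1, both higher) beside 3.69%, DB#2 against M gave 3 of 39 (Pfkp, Hk1 and Ldhb, all higher) beside 3.44%, and DB#3 against M gave 1 of 39 (Hk1, higher) beside 2.76%. These 4 comparisons share the M arrays, so their values are given side by side and not as separate evidence. DB#2 against D gave 4 of 39, with Pfkp, Ldhb and Pfkfb2 higher and Slc16a3 lower in DB#2, beside 6.34%. A test of any difference among the 5 melanoma lines called 5 of 39 (Hk1, Pfkp, Pfkfb2, Ldhb and Slc16a3) beside 7.19%. In the same order, the share of the set that was called was 2.63%, 5.13%, 7.69%, 2.56%, 10.3% and 12.8%, each from 1 to 5 genes. In the test of the 5 lines, Pfkp lost its call without DB#2 replicate 1. Pfkfb2 lost it without DB#2 replicate 2 or 3, with the 75th percentile taken over detected probes, without scaling, with no filter on dim probes and, as Hk1 did, with the mean of a gene's probes.

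Every slide held every line, and with slide as a block more genes passed in most comparisons. D against M then had 2 calls (background 5.38%), DB#1 3 (5.62%), DB#2 5 (5.31%), DB#3 2 (3.93%), DB#2 against D 5 (11.5%) and the 5 melanoma lines 7 (11.4%). The genes added were Hk1 in D, Pfkfb3 in DB#1, Pfkfb4 and Eno3 in DB#2, where both were lower, Ldhb in DB#3 and Hk1 in DB#2 against D. With the replicate number as a block, DB#1 against M had 4 calls, Pfkfb3 and Pfkp being added (background 3.89%). Over the tested genes of the set the median log2 difference from M was 0.17 in D, 0.19 in DB#1, 0.07 in DB#2 and 0.20 in DB#3, where the median of all genes tested was -0.01, 0.04, 0.02 and 0.03. The sign was positive for 24 of 38, 28 of 39, 24 of 39 and 32 of 39 genes. Of all genes tested, 48.1%, 55.4%, 52.3% and 54.3% were positive.

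**Figure D1:**
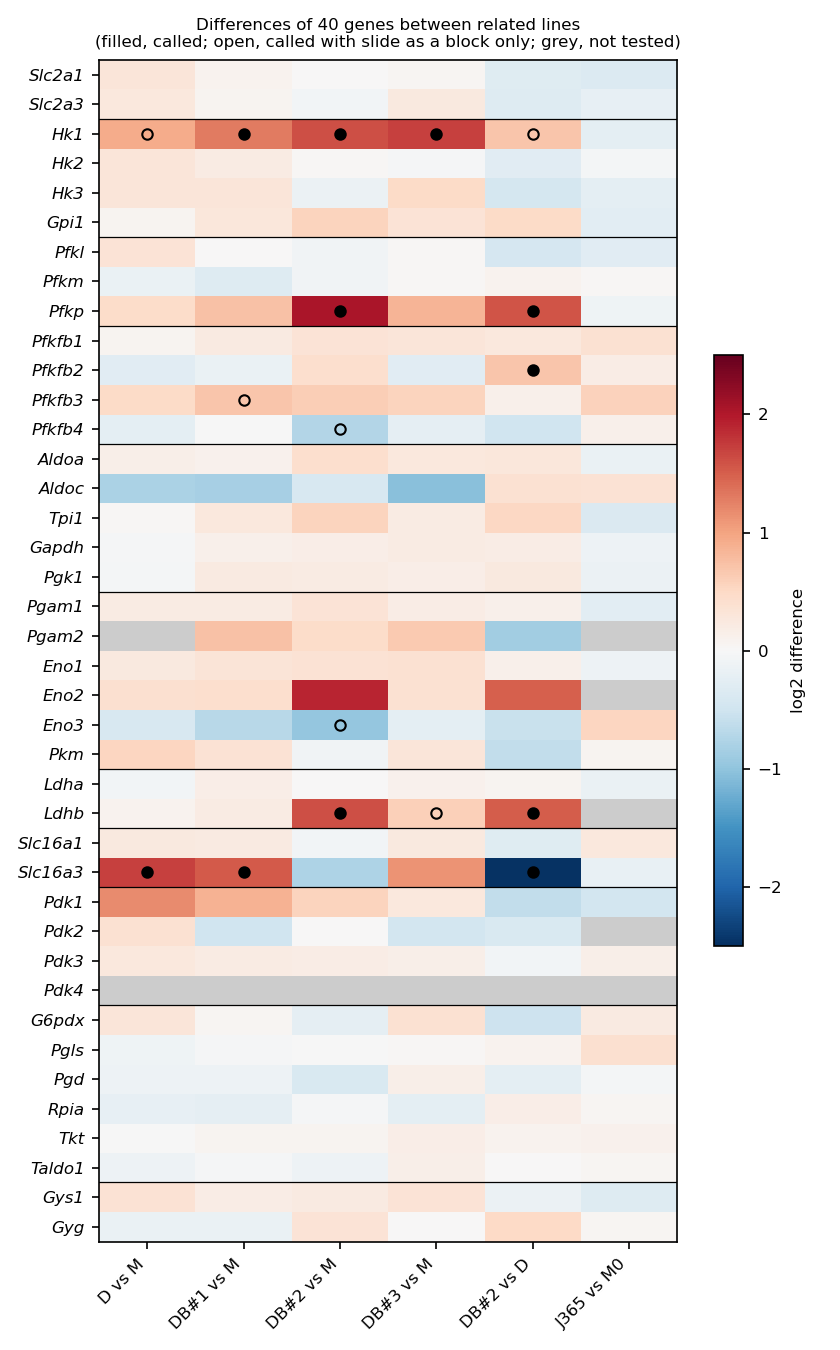
Log2 difference of each of the 40 genes (rows, grouped by step of the pathway) in 6 comparisons of related lines (columns), with red for higher and blue for lower in the line named first. Filled dots mark the calls, which lie in the rows of Hk1, Pfkp, Pfkfb2, Ldhb and Slc16a3, open dots mark genes called only with slide as a block, and grey cells were not tested.

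The 4 genes called in more than 1 comparison of a pair of melanoma lines were Slc16a3, Hk1, Pfkp and Ldhb, and the 250 bases before their starts are shown because the differences between the lines rest on these genes. They come from RefSeq on GRCm38.p6 and run 5′ to 3′ on the strand of the gene. Capitals mark ACGTG on either strand, the core of the hypoxia response element. Hk1 has an upstream (start 1) and a downstream (start 2) entry, and the files do not tie its probes to either.

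Slc16a3, chr11:120948817-120949066, plus strand: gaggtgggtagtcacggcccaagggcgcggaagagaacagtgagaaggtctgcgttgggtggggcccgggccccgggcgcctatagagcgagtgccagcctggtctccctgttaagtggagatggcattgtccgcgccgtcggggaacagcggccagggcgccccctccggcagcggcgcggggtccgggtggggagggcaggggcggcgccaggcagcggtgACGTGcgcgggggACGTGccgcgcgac
Hk1 start 1, chr10:62379909-62380158, minus strand: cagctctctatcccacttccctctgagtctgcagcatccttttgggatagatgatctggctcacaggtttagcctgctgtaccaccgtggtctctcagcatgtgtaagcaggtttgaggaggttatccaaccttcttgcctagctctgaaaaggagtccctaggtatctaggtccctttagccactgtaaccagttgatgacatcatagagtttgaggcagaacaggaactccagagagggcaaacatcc
Hk1 start 2, chr10:62340422-62340671, minus strand: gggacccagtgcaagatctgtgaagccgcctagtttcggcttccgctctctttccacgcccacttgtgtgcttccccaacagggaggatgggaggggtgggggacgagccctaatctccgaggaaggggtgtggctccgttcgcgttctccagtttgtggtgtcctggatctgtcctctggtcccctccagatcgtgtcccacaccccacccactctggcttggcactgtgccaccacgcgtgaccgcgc
Pfkp, chr13:6648772-6649021, minus strand: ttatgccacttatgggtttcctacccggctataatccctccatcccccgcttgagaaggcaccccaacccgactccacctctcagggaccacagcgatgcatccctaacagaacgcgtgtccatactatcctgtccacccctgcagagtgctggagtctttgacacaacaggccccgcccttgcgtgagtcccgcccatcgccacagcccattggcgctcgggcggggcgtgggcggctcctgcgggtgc
Ldhb, chr6:142507958-142508207, minus strand: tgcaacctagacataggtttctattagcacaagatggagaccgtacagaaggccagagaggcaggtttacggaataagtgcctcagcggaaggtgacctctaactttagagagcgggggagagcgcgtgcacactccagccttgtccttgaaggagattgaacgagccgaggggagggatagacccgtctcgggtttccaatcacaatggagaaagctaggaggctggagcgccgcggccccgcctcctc

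The Slc16a3 sequence held ACGTG at 2 places, which begin 27 and 14 bases before the start. No match lay in the other sequences shown, and the second Hk1 entry had 2 within the 50 bases after its start. Over windows of 300 bases, 250 before and 50 after the start, ACGTG lay in 24 of 59 entries of the set (40.7%, from 20 of the 39 genes with an entry) and in 6447 of all 32851 entries (19.6%). CACGTG, the E-box, which contains ACGTG, lay in 7 of the 59 (11.9%) and in 2349 of all (7.15%). Slc2a3 had no entry. A match is a description of the letters and not of a bound site.

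Slc16a3 encodes MCT4, the carrier through which glycolytic cells release lactate, and it was measured by 1 probe. Its signal was 0.78, 0.32 and 1.04 in M, 2.75, 3.24, 1.67 and 2.04 in D, 1.96, 1.94, 2.31 and 2.79 in DB#1, 0.72, -0.52 and -0.36 in DB#2, and 2.22, 1.38 and 1.93 in DB#3. Every D, DB#1 and DB#3 array lay above every M array, and the DB#2 arrays overlapped M or lay below it. The mean rose by 1.71 ± 0.34 (SE, n = 4 and 3) in D against M, which is 3.28-fold (limma adjusted p = 0.00554), and by 1.54 ± 0.34 in DB#1 (n = 4 and 3, adjusted p = 0.0102). DB#3 differed from M by 1.13 ± 0.37 (adjusted p = 0.147) and DB#2 by -0.76 ± 0.37 (adjusted p = 0.422), and neither passed. DB#2 lay below D by 2.48 on the log2 scale (SE 0.34, adjusted p = 6.76e-05), with no overlap.

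The Slc16a3 calls against M rested on M replicate 2, the lowest M array. Without it the D difference was 1.52 (adjusted p = 0.053) and the DB#1 difference 1.34 (adjusted p = 0.0889), and with only the D and M arrays in the fit the adjusted p for D was 0.153. Within the 3 slides the D difference was 1.96, 1.35 and 1.26, the DB#1 difference 1.27, 1.64 and 1.59, and the DB#2 against D difference -3.52, -0.95 and -2.40. Without D replicates 1 and 3 together, the D difference from M was 1.93 (adjusted p = 0.00723) and the DB#2 difference from D -2.69 (adjusted p = 0.000178). In bulk RNA such as this, more RNA per cell and more cells that make the RNA cannot be told apart.

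**Figure D2:**
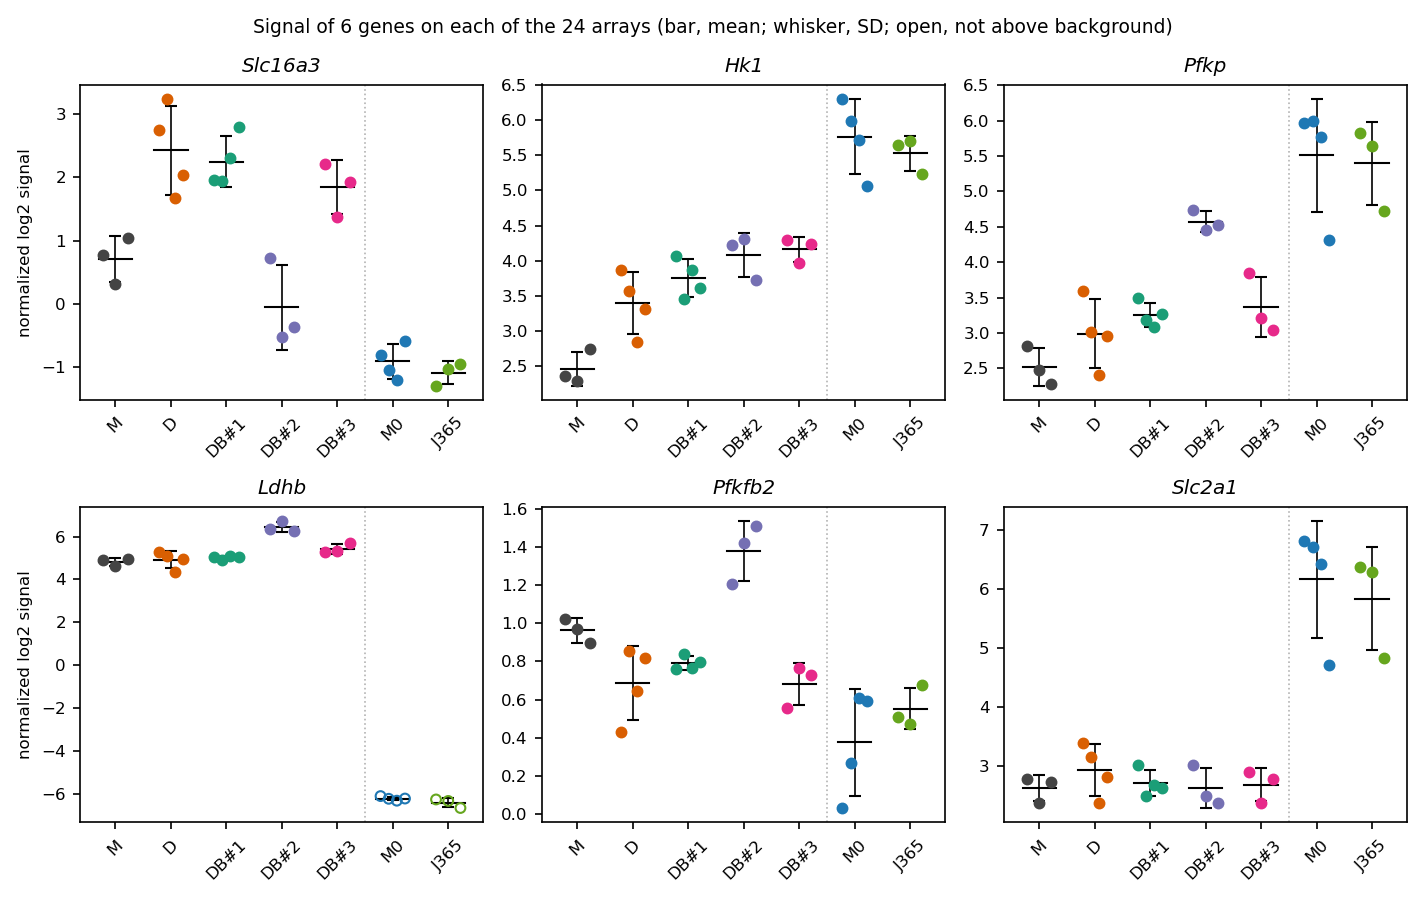
Normalized log2 signal of 6 genes on each of the 24 arrays, by line, with the mean as a bar, the SD as a whisker and open circles for signals not above background. Slc16a3 is high in D, DB#1 and DB#3, Hk1 is above M in every other melanoma line, Pfkp, Ldhb and Pfkfb2 are highest in DB#2 among the melanoma lines, and Slc2a1 separates the cell types only.

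The other carriers did not pass the test in any of these comparisons. Slc2a1 and Slc2a3, the glucose carriers GLUT1 and GLUT3, differed from M by 0.00 to 0.31 and by -0.07 to 0.26 across D and the DB lines. Slc16a1, which encodes MCT1, a carrier that moves lactate either way, differed by -0.07 to 0.24. For these 3 genes the arrays of each line overlapped those of M.

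Hk1, the broadly expressed hexokinase that traps glucose in the cell as glucose 6-phosphate, was lowest in M. Its signal was 2.36, 2.30 and 2.74 in M, 3.88, 3.57, 2.84 and 3.31 in D, 4.07, 3.46, 3.87 and 3.61 in DB#1, 4.23, 4.31 and 3.73 in DB#2, and 4.30, 3.96 and 4.24 in DB#3. No array of another melanoma line overlapped M. Hk1 rose by 1.29 ± 0.26 in DB#1 (n = 4 and 3, limma adjusted p = 0.00467), by 1.62 ± 0.28 in DB#2 (n = 3 and 3, adjusted p = 0.00105) and by 1.70 ± 0.28 in DB#3 (n = 3 and 3, adjusted p = 0.00069). In D the difference was 0.93 ± 0.26 (adjusted p = 0.0616, or 0.0216 with slide as a block), and it was also called with the other scalings, with normexp background correction, with the replicate block and when D replicate 3 was left out. Within the slides it was 0.98, 0.55 and 0.95 in D and between 1.13 and 1.93 in the DB lines.

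The rise in Hk1 was seen by 1 of its 2 probes. The other probe lies on another RefSeq transcript of the gene, had line means of -3.88 to -3.02 in the melanoma lines, and differed from M by 0.79 in D, -0.04 in DB#1, -0.06 in DB#2 and 0.15 in DB#3. With the mean of both probes the Hk1 differences were 0.63, 0.78 and 0.93 in DB#1, DB#2 and DB#3, and none passed (adjusted p = 0.241, 0.144 and 0.0728). Hk2, the insulin-regulated and tumour-associated hexokinase, differed from M by -0.03 to 0.31, and Hk3 by -0.15 to 0.48. Gpi1, the isomerase that follows hexokinase, differed by 0.07 to 0.56, with all DB#1 and DB#2 arrays above M, and none of these passed.

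Pfkp is the platelet form of phosphofructokinase, the enzyme of the committed step of glycolysis, and it was high in DB#2. Its signal was 2.81, 2.48 and 2.28 in M, 3.59, 3.01, 2.41 and 2.95 in D, 3.49, 3.18, 3.09 and 3.26 in DB#1, 4.74, 4.45 and 4.52 in DB#2, and 3.85, 3.21 and 3.04 in DB#3. The DB#2 arrays lay above every other melanoma array. Pfkp rose by 2.05 ± 0.37 in DB#2 against M (4.13-fold, n = 3 and 3, limma adjusted p = 0.00176) and by 1.58 ± 0.35 against D (n = 3 and 4, adjusted p = 0.00732). Both of its probes moved alike, by 2.05 and 2.07 against M and by 1.58 and 1.45 against D. Within the slides the difference from M was 2.17, 2.26 and 1.71. DB#1 and DB#3 differed from M by 0.73 and 0.84 with no overlap and did not pass (adjusted p = 0.394 and 0.427). With the replicate number as a block both were called (0.79, adjusted p = 0.0358, and 1.20, adjusted p = 0.0202). Same-numbered DB#1 and M arrays deviated together, whereas DB#3 and M share only 1 number.

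The other forms of phosphofructokinase did not follow Pfkp. Pfkl, the liver form, differed from M by -0.09 to 0.33, and Pfkm, the muscle form, by -0.33 to 0.02, with no call for either. In DB#2 against D, the 2 genes differed by -0.42 and 0.08.

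The Pfkfb enzymes make and break the small sugar phosphate that switches phosphofructokinase on. Pfkfb2, the heart form, read 1.02, 0.97 and 0.90 in M, 0.43, 0.85, 0.64 and 0.82 in D, 0.76 to 0.84 over the 4 DB#1 arrays, 1.20, 1.42 and 1.51 in DB#2, and 0.56, 0.76 and 0.73 in DB#3. DB#2 lay above M, and D, DB#1 and DB#3 below it, without overlap. DB#2 was higher than D by 0.69 ± 0.14 (n = 3 and 4, limma adjusted p = 0.00385), and no difference from M passed. The call was lost without scaling (0.75, adjusted p = 0.102), with only the D and DB#2 arrays in the fit (adjusted p = 0.194) and with the mean of its 3 probes (difference 0.14, adjusted p = 0.731), whose differences ran from -0.35 to 0.69. Without D replicates 1 and 3 the difference was 0.54 (adjusted p = 0.0412).

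Pfkfb3, the inducible form with high kinase activity, was higher than M by 0.48 to 0.69 in D and the DB lines and did not pass. In DB#1 it was 0.69 (adjusted p = 0.0813), and it was called with slide as a block (0.72, adjusted p = 0.0435), with the replicate block (0.74, adjusted p = 0.0387), with quantile normalization, with the detected percentile and with only the DB#1 and M arrays. Pfkfb4 differed by -0.73 ± 0.21 in DB#2 (adjusted p = 0.0667), and was called with the slide block (adjusted p = 0.00495) and the detected percentile (adjusted p = 0.025). Pfkfb1, the liver form, differed by 0.07 to 0.33.

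From aldolase to pyruvate kinase, no gene was called in any comparison of related lines. On their brightest probes, Aldoa, Tpi1, Gapdh, Pgk1, Pgam1 and Eno1, the main enzymes of this stretch, differed from M by -0.05 to 0.56. The highest of these values was that of Tpi1, triose phosphate isomerase, in DB#2 (0.56 ± 0.32, adjusted p = 0.572). Some dimmer probes moved more. The dimmer Eno1 probe had means of 4.46 in M and 5.08, 5.03, 5.11 and 5.07 in D, DB#1, DB#2 and DB#3. A dimmer Tpi1 probe had 4.74 in M and 5.43 in DB#2. Without scaling between arrays Tpi1 (0.79, adjusted p = 0.039) and Aldoa (0.66, adjusted p = 0.0481) were called in DB#2. In that setting 1255 of all genes were called, 1122 of them higher, against 720 with scaling. Aldoc, the brain aldolase, pointed the other way, at -0.78, -0.84, -0.40 and -1.05 in D, DB#1, DB#2 and DB#3. All D, DB#1 and DB#3 arrays of Aldoc lay below M, and none of the differences passed (adjusted p = 0.429 to 0.912).

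The tissue forms of enolase varied more than the common form. Eno2, the neuronal enolase, read 0.07, -0.63 and -0.45 in M and 1.82, 1.60 and 1.30 in DB#2. The DB#2 difference was 1.91 ± 0.57 with no overlap and did not pass (adjusted p = 0.0773). It was called with the detected percentile (1.85, adjusted p = 0.0486), without scaling (2.14, adjusted p = 0.0232) and with only the DB#2 and M arrays (adjusted p = 0.0108). D replicate 1 stood apart for this gene, with 2.40 against -0.24, -1.06 and -0.82 on the other D arrays, and without it DB#2 against D was called. Eno3, the muscle enolase, read 2.24, 2.68 and 2.32 in DB#2 against 3.52, 3.16 and 3.44 in M, a difference of -0.96 ± 0.28 (adjusted p = 0.0694). It was called with slide as a block (adjusted p = 0.0153), with quantile normalization (adjusted p = 0.00714) and with the detected percentile (adjusted p = 0.00743). The same scalings also called it in DB#1 (-0.73 and -0.74). Pkm, pyruvate kinase, differed from M by -0.09 to 0.53, and Pgam2, which was not tested in D against M, by 0.47 to 0.73 in the DB lines.

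Ldhb, whose subunit gives the lactate dehydrogenase that favours the oxidation of lactate, was high in DB#2. Its signal was 4.91, 4.61 and 4.97 in M, 5.27, 5.12, 4.34 and 4.96 in D, 5.04, 4.91, 5.11 and 5.05 in DB#1, 6.36, 6.72 and 6.25 in DB#2, and 5.27, 5.33 and 5.69 in DB#3. The DB#2 arrays lay above all other melanoma arrays. Ldhb rose by 1.61 ± 0.20 in DB#2 against M (3.06-fold, n = 3 and 3, limma adjusted p = 1.76e-05) and by 1.52 ± 0.18 against D (n = 3 and 4, adjusted p = 1.31e-05). The 2 probes gave 1.56 and 1.61 against M, and the slides 1.76, 1.75 and 1.34. In DB#3 the difference of 0.60 ± 0.20 did not pass (adjusted p = 0.155), and it was called with slide as a block (adjusted p = 0.0203), with the detected percentile (adjusted p = 0.0335) and without scaling (adjusted p = 0.0408). Ldha, whose subunit favours the making of lactate, differed from M by -0.06 to 0.17 in all 4 lines, with no call.

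Pdk1, the hypoxia-induced pyruvate dehydrogenase kinase, read -0.53, -0.05 and 0.11 in M, 1.11, 1.56, 0.46 and 0.95 in D, and 0.48, 0.60, 0.60 and 1.18 in DB#1. Both lines lay above M without overlap, and neither difference passed (1.18 ± 0.42, adjusted p = 0.183, and 0.87 ± 0.42, adjusted p = 0.399). In D it was called without scaling (1.36, adjusted p = 0.0462) and with the replicate block (1.17, adjusted p = 0.0238). Its 3 probes above background on every D and M array gave 0.01 to 1.21. Pdk2 and Pdk3 differed from M by -0.51 to 0.38 and by 0.15 to 0.26. Pdk2 was dim, above background on all arrays of M and DB#2 alone.

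The pentose phosphate genes differed little between the melanoma lines. G6pdx, glucose-6-phosphate dehydrogenase, which makes the first NADPH of the pathway, differed from M by -0.21 to 0.37. Pgls and Pgd of the same oxidative branch and Rpia, Tkt and Taldo1 of the sugar-shuffling branch differed by -0.37 to 0.17. None of the 6 was called in any comparison of related lines. Of the genes for glycogen, Gys1, the muscle glycogen synthase, differed from M by 0.19 to 0.37 and Gyg, glycogenin, the protein on which a glycogen chain starts, by -0.17 to 0.33, also with no call, although Gyg was called in DB#2 against D without D replicate 1 (0.49, adjusted p = 0.348, with it).

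M against M0 asked how the parental melanoma line and a myeloid line differ, and here 27 of 38 tested genes were called (71.1%), 8 higher and 19 lower in M. Of all genes tested 58.5% were called, 27.7% higher and 30.8% lower. Of the 8 higher, Ldhb, Eno2 and Pdk2 were tested only because M was above background. Over genes above background in both lines, 24 of the set were called, 5 higher and 19 lower. The share of all genes under that filter is not given here. The median difference of the set was -0.66, against -0.13 for all genes, and 9 of 38 values were positive. Under the slide block the count was 31, with 9 higher and 22 lower (background 66.9%), and all 27 calls kept their direction within each of the 3 slides. Without scaling between arrays the median of all genes moved from -0.13 to 0.01, and 28 genes of the set were called, 9 higher and 19 lower. Of all genes 12186 were then called, against 13112 with scaling.

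Glucose carriers and the enzymes of the upper pathway were lower in M. Slc2a3 read 0.93, 0.68 and 0.79 in M against 8.06, 7.77, 7.56 and 6.15 in M0 (replicates 1 to 4), a difference of -6.58 ± 0.34 (limma adjusted p = 6.29e-13). Its other probe, not above background on any M array, was at least 59.2-fold higher in M0. Slc2a1 read 2.77, 2.38 and 2.72 in M against 6.82, 6.71, 6.42 and 4.71 in M0, a difference of -3.54 ± 0.42 (adjusted p = 3.25e-07). Neither gene overlapped, and M0 replicate 4 was the lowest M0 array for both. Without the unnumbered myeloid arrays the differences were -7.00 and -4.03.

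All 4 genes of the hexokinase and isomerase step were lower in M, as were all 3 phosphofructokinases. Hk1 read 6.30, 5.99, 5.71 and 5.06 in M0 (difference -3.30 ± 0.27, adjusted p = 9.18e-10), although its dimmer probe, above background on 1 of the 7 myeloid arrays, gave 0.41. Hk3, the hexokinase of white blood cells, read -2.06, -2.02 and -3.25 in M and 1.26, 1.23, 0.98 and 0.09 in M0 (difference -3.33 ± 0.52, adjusted p = 1.2e-05), and its other probe, not above background on any M array, was at least 6.02-fold higher in M0. Hk1 and Hk3 did not overlap between the lines. Hk2, Gpi1, Pfkl, Pfkp and Pfkm differed by -2.02, -1.28, -3.03, -2.98 and -0.84, and Pfkfb4 and Pfkfb1 by -3.05 and -2.24.

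Pdk1 read -0.53, -0.05 and 0.11 in M against 4.55, 4.50, 4.11 and 2.44 in M0, a difference of -4.06 ± 0.42 (adjusted p = 5.14e-08) that ran from -4.27 to -0.25 over its 3 probes above background on every M and M0 array. Its arrays did not overlap. Gys1 and Pdk3 were lower by 3.26 and 2.42 on the log2 scale, from differences of -3.26 and -2.42. Smaller falls were called for Eno3 (-1.24), Pgam1 (-1.0), Aldoa (-0.95), Pgls (-0.74) and Ldha (-0.45). The Ldha value turned to 0.12 (adjusted p = 0.421) with quantile normalization, which also ended the call of Pgls, and Ldha lost its call without scaling and without M replicate 3.

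Isoforms of the same step went opposite ways. Aldoc, at 3.49, 3.91 and 4.21 in M against 0.39, 1.22, 1.07 and -0.71 in M0, was higher by 3.38 ± 0.44 (adjusted p = 1.21e-06, and 4.97 by its other probe), while Aldoa was lower. Ldhb was not above background on any myeloid array and was at least 484-fold higher in M, while Ldha was lower. Eno2 was at least 13.5-fold higher in M, again with no myeloid array above background, while Eno3 was lower. Gyg (2.32), Pgd (1.80), Slc16a3 (1.62) and Pfkfb2 (0.59) were also higher in M. The probes of Pfkfb2 ran from -0.52 to 0.59, and its call was lost with their mean. The dim Pdk2, above background on no M0 array, was at least 1.12-fold higher. Its call was lost with the detected percentile, with normexp and without M replicate 2, M replicate 3, M0 replicate 2 or M0 replicate 3. The common enzymes Gapdh, Pgk1, Tpi1, Eno1 and Pkm (-0.71 to -0.17) did not pass, nor did Pfkfb3, Slc16a1, G6pdx, Rpia, Tkt and Taldo1 (-0.36 to 0.66). Gapdh was called higher in M with quantile normalization (0.33), and its other probes had means no lower in M than in M0. G6pdx was called higher in M with that scaling, the detected percentile, no scaling, slide as a block, only these lines, and without M0 replicate 1. Pgk1, Tpi1 and Tkt were called lower with the detected percentile and slide as a block, and Taldo1 with the former.

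**Figure D3:**
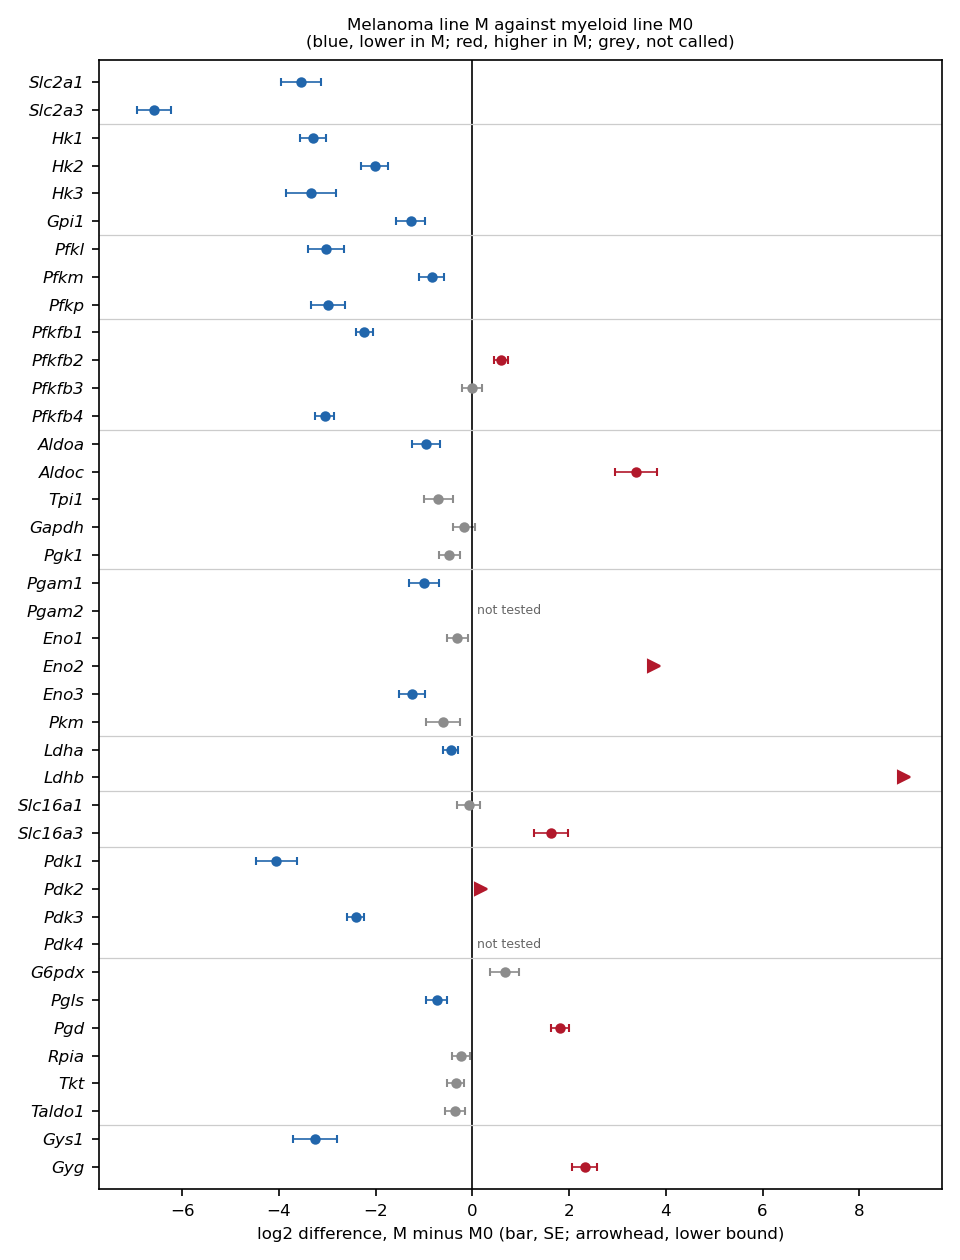
Log2 difference of M minus M0 for the 40 genes in pathway order, with the standard error as a bar and arrowheads for the lower bounds of Ldhb, Eno2 and Pdk2. Points left of 0 are lower in M, as in all 7 genes from Hk1 to Pfkp, blue and red points were called, and grey points were not.

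The same pattern held over all lines of each cell type for part of the set. Among the 35 genes above background on all arrays, 13 (37.1%) had every melanoma array below every myeloid array, 4 (11.4%) the reverse and 18 overlapped, where 15.98% and 13.67% of 15768 such genes did so. The 13 were Slc2a1, Slc2a3, Hk1, Hk2, Hk3, Pfkl, Pfkfb1, Pfkfb4, Eno3, Pdk1, Pdk3, Pgls and Gys1, and the 4 were Aldoc, Slc16a3, Pgd and Gyg. Pfkp overlapped in DB#2, whose 4.45 to 4.74 reached the range of the myeloid arrays (4.32 to 5.99), of which the unnumbered arrays were the lowest at 4.32 and 4.73.

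J365 against M0 gave no call among 35 tested genes (0, limma) beside 1.47% of all genes, and 0 with slide as a block beside 2.42%. At an unadjusted p under 0.05 there were 2, Pfkfb3 (0.58 ± 0.21, adjusted p = 0.306) and Pfkfb1 (0.39 ± 0.18, adjusted p = 0.539), both higher in J365 without overlap. The differences of the set ran from -0.46 to 0.58 with a median standard error of 0.26, and their median was -0.05 against 0.02 for all genes.

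Within the myeloid lines the larger spread was between arrays of the same line. M0 replicate 4 lay below all other M0 arrays for 23 of the 35 genes above background throughout (65.7%, against 32.7% of 19228 genes), with a median difference of -0.84 from their mean, against -0.03 for all genes. J365 replicate 4 did so for 26 of 35 (74.3%, against 34.6%), with a median of -0.44 against -0.01. Slc2a1 read 4.71 on the unnumbered M0 array and 6.42 to 6.82 on the others, and 4.83 on the unnumbered J365 array against 6.38 and 6.30. Pdk1 (2.44 and 2.47, against 4.11 to 4.55 and 3.86 to 3.97) and Gys1 (2.99 and 2.97, against 4.63 to 5.32 and 4.59 to 4.83) were low on the same arrays. Of 30 hypoxia genes, 25 and 24 were below the other arrays of the line as well, with medians of -1.26 and -0.88.

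Both arrays lay on slide 2, as did M0 replicate 3, which read 6.42 for Slc2a1, the lowest of the numbered M0 arrays. In J365 no other array lay on slide 2, so slide and the missing number cannot be told apart there. What set the unnumbered arrays apart was not tested. Without both of them J365 against M0 still had 0 calls, and M against M0 had 31, 8 higher and 23 lower, with Eno1, Pgk1, Pkm and Tpi1 added. The shares of all genes in these fits are not given here. Over the 35 genes, the median share of the spread within lines that went with slide was 36.7% (0.44% to 66.6%). The same share over all genes was not computed.

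**Figure D4:**
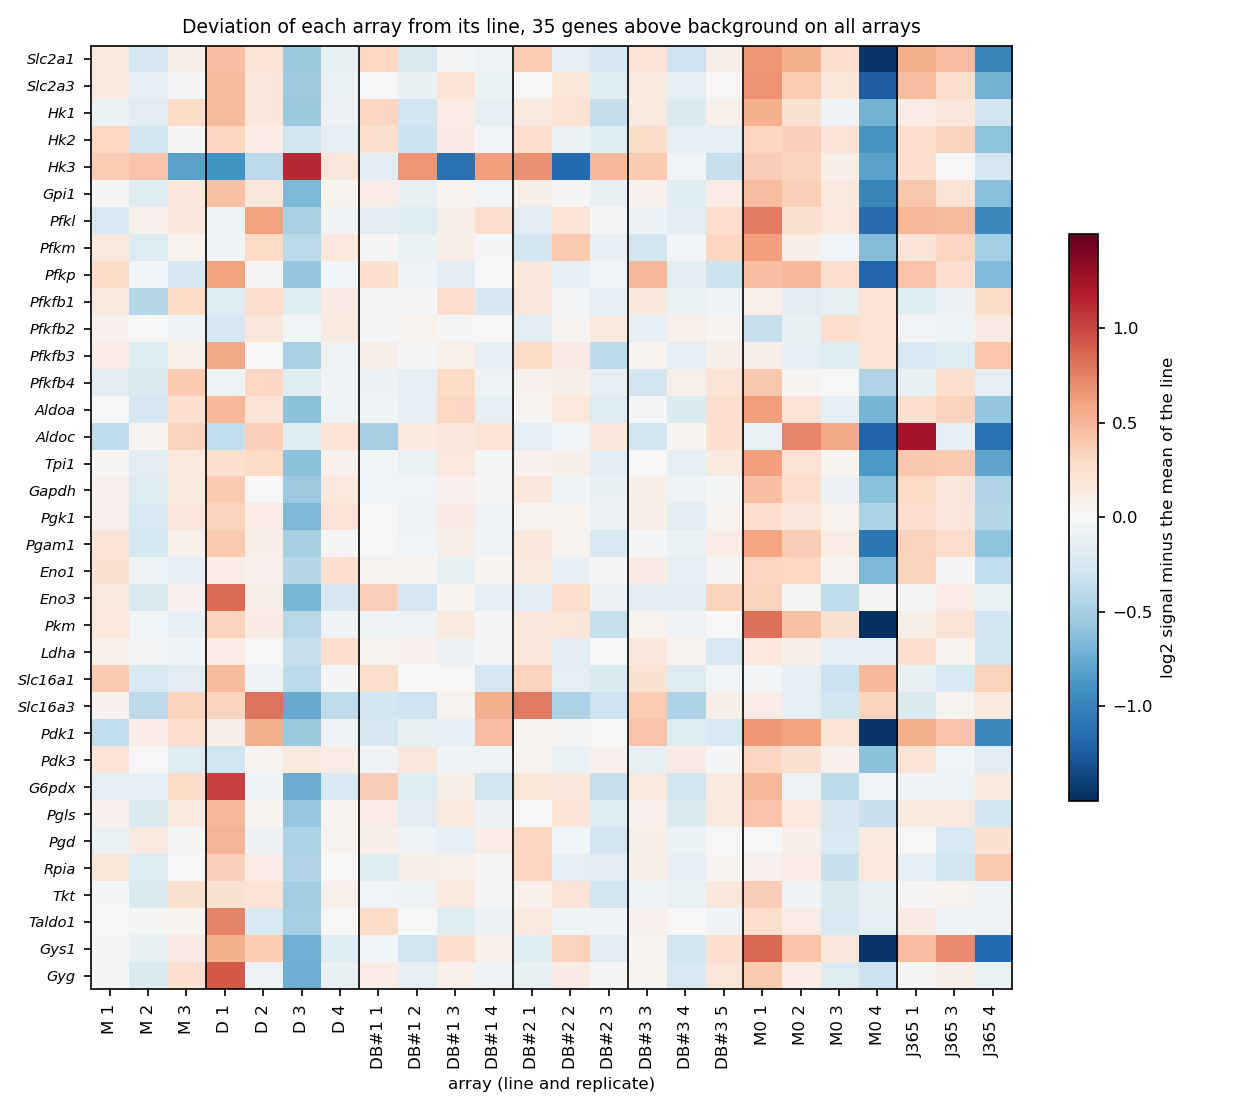
Deviation of each array (columns, by line and replicate number) from the mean of its line in log2 signal, for the 35 genes above background on all 24 arrays (rows). M0 replicate 4, J365 replicate 4 and D replicate 3 are blue, below their line, over most rows, and D replicate 1 is red over many. For the D arrays the same count over all genes was not computed.

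Whether D differed from M in another way than J365 from M0 was tested as the difference between the differences. It was called for 1 of 38 genes, Slc16a3, at 1.89 ± 0.49 (limma adjusted p = 0.0491, n = 4, 3, 3 and 4), beside 2.08% of all genes, and with slide as a block for 2, beside 3.10%, with Hk1 added (1.16, adjusted p = 0.0486). In the myeloid lines Slc16a3 read -0.81, -1.05, -1.21 and -0.58 in M0 and -1.29, -1.03 and -0.94 in J365, a difference of -0.18 ± 0.35. The call stood at the threshold and was lost in 17 of 27 other settings, with adjusted p from 0.0125 to 0.221. Leaving out any single array of M, M0 or J365, or D replicate 1 or 2, ended it.

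Of 79 further genes of sugar metabolism, 3 of 56 tested were called in D, 2 of 55 in DB#1, 4 of 55 in DB#2 and 2 of 56 in DB#3 against M. These were 5.36%, 3.64%, 7.27% and 3.57% of those tested, beside 2.97%, 3.69%, 3.44% and 2.76% of all genes. Slc2a4, the insulin-responsive carrier GLUT4, was higher in all 4 (2.91, 4.19, 3.07 and 3.81), with a mean of -2.96 in M and -0.06, 1.23, 0.11 and 0.85 in D, DB#1, DB#2 and DB#3. Ldhd, which oxidises D-lactate, was higher in all 4 as well (2.41, 3.84, 5.42 and 4.05). In DB#2, Slc2a6, a glucose carrier of the same family, and Khk, the kinase that starts fructose breakdown, were lower (-1.86 and -1.74), and in D, Slc2a13, a proton-coupled inositol carrier, was lower (-0.87). DB#2 against D gave 4 of 56 calls, with Ldhd (3.01) and Slc2a13 (0.69) higher and Slc2a6 (-2.08) and Khk (-1.79) lower. That was 7.14% of those tested, beside 6.34% of all genes.

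Of 38 genes tied to hypoxia, 2 of 33 tested were called in D, 2 in DB#1, 1 in DB#2 and 2 in DB#3, with medians of -0.03 to 0.09. These were 6.06%, 6.06%, 3.03% and 6.06% of those tested, beside 2.97%, 3.69%, 3.44% and 2.76% of all genes. Epas1, the oxygen-regulated factor HIF-2α, was higher in D, DB#1, DB#2 and DB#3 (1.02, 1.77, 1.52 and 2.14). P4ha2, a collagen prolyl hydroxylase, was higher in D and DB#1 (0.86 and 0.94), and Ddit4, an inhibitor of mTOR signalling, was lower in DB#3 (-1.40). In DB#2 against D none of 33 was called (0, limma), beside 6.34% of all genes, and 6 passed at an unadjusted p under 0.05.

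Of 30 regulators of glucose use, 28 were tested against M, and 1, 1, 2 and 1 were called in D, DB#1, DB#2 and DB#3. These were 3.57%, 3.57%, 7.14% and 3.57% of those tested, beside 2.97%, 3.69%, 3.44% and 2.76% of all genes. Myc was higher in D, DB#1 and DB#3 (1.04, 0.95 and 0.93) and was not called in DB#2, where Ppargc1a (3.38), a coactivator of mitochondrial genes, and Esrra (1.20), the nuclear receptor it works with, were the calls. Both were also the calls in DB#2 against D (2.93 and 1.04), 7.14% of those tested beside 6.34% of all genes. Ppargc1a had a mean of 3.97 ± 0.18 (SD, n = 3) in DB#2 and means between 0.59 and 1.66 in the other melanoma lines.

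In J365 against M0, 0 of these further genes were called in any of the 3 lists (limma), and 3 of 49 sugar genes, 0 of 31 hypoxia genes and 2 of 26 regulators had an unadjusted p under 0.05. The share of all genes called in that comparison was 1.47%. In M against M0, 29 of 35 hypoxia genes were called, 21 of them lower in M, with a median of -1.37. The called share was 82.9% of the hypoxia genes, 70.2% of the sugar genes and 75.9% of the regulators, beside 58.5% of all genes. Ankrd37 (-8.17), Car12 (at least 82.6-fold) and Angptl4 (-7.63) were among those lower in M, and Rora, P4ha2 and Epas1 (at least 45.1-fold, 42.8-fold and 8.90-fold) among those higher. Angptl4 was above background on only 1 M array, so its difference rests largely on signals at background. Of the sugar genes 40 of 57 were called, 20 each way, among them the fructose carrier Slc2a5 (at least 139-fold higher), Emb and Phka1, and on the lower side Pcx (-3.24), Khk (-3.06) and Ldhc. Of the regulators 22 of 29 were called, 11 each way, with Ppargc1a (at least 25.7-fold), Prkaa2 and Klf4 higher, and Mycn (at least 819-fold), Txnip (-3.87) and Pik3ca (-3.43) lower in M.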

How the data were processed

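Gene expression was measured on 24 Agilent arrays, and the authors deposited for each array the scanner table of Agilent Feature Extraction 10.7.3.1. The intensity used, deposited on a linear scale, is background-corrected and not scaled between arrays, and further scaling by the authors was not given in the sources used here. A deposited table of the series held the same intensity values (1511424 of 1511424 equal). Of 56605 non-control probes, 117 called outliers on an array were left out, and spots of a probe were averaged. Log2 intensities were centred on the 75th percentile of each array. Probes took their gene from the RefSeq transcript (GRCm38.p6 names, 22881 symbols of 45547 names). The array design refers to mm9, so coordinates are given for RefSeq promoters only.

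Lines were compared with limma 3.58.1 in R 4.3.3, with all 24 arrays in 1 model (17 residual degrees of freedom). A gene was tested if well above background on every array of at least 1 line compared, using its brightest probe, and p-values were adjusted by Benjamini-Hochberg within each comparison. A line with no array above background gave a lower bound, the bright mean minus, per array of the dim line, the higher of the probe's signal and the lowest signal above background. The genes and lists were chosen with earlier results of these data known. All genes of the set are named, per-array values are given for those called between related lines and for the 6 largest differences between M and M0 that both lines measured above background throughout, and up to 3 called genes each way are named from other lists. Replicate numbers were taken as pairing arrays where all same-numbered pairs of 3 or more correlated above 0.1 in their deviations from the line means, which held for DB#1 and M only (0.65, 0.57 and 0.91, the last pair on the same slide). The fits were tested on simulated data. Alternatives were other scalings, normexp background correction (offset 50, on median signals because mean signals are not in the tables used), other filters, the mean of a gene's probes, only the lines compared, slide or replicate number as a block, values within slides, arrays left out, a 2-fold minimum and eBayes with trend. Leaving out D replicates 1 and 3 together, or both unnumbered myeloid arrays, was chosen after seeing the data. The number of arrays, 3 or 4 per line, limits the precision.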

Additional observations from a re-analysis of the deposited data

Results flagged for a closer look

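In 110 groups of 4 arrays, 1 gene and line each, 5 had an array whose gap to the others passed Dixon's 95% limit, where chance passes about 1 in 20. Hk2 was low in M0 replicate 4 at 3.32, against 4.40 to 4.56 on the other M0 arrays. Pfkp was low on the same array at 4.32, against 5.76 to 5.99. Pfkfb4 was high in DB#1 replicate 3 at -0.25, against -0.68 to -0.61. Aldoc was low in DB#1 replicate 1 at 2.53, against 3.17 to 3.22. Pdk3 was high in DB#1 replicate 2 at 0.71, against 0.47 to 0.48.

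Slc16a3 differed between the melanoma and the myeloid pair by 1.89 in the test of D minus M against J365 minus M0 (limma adjusted p = 0.0491).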

How the results depend on the processing

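No called difference changed its direction past the threshold under any setting. Gapdh, not called and slightly lower in M in M against M0, was called higher in M with quantile normalization (0.33, limma adjusted p = 0.00825). In D against M the count of called genes was 2 with quantile normalization, with the percentile over detected probes, with normexp and with slide as a block, 3 without scaling and with a replicate block, 0 when the fit held the D and M arrays alone, and 0 to 2 with 1 array left out (0 without M replicate 2, 2 without D replicate 3). In DB#1 it was 4 with quantile normalization, the detected percentile and the replicate block, 1 with the mean of a gene's probes, and 1 to 2 with 1 array left out (1 without M replicate 2). In DB#2 it was 6 with the detected percentile and without scaling, 5 with slide as a block and 2 with the mean of a gene's probes. In DB#3 it was 2 with the detected percentile, without scaling, with slide as a block and with the replicate block, and 0 with the mean of probes. The difference between the pairs had 2 calls with quantile normalization, the detected percentile, no scaling and slide as a block, 0 with no filter on dim probes, with the filter in all lines, with only the lines compared and with the replicate block, and 0 to 2 with 1 array left out. The test of the 5 melanoma lines had 3 with the mean of probes. Of all genes, 598, 765, 720 and 569 were called in D, DB#1, DB#2 and DB#3 in the reported fit. With quantile normalization these were 798, 878, 809 and 630, and with the detected percentile 850, 1051, 995 and 766. Without scaling they were 547, 680, 1255 and 495, with 1122 of the 1255 higher in DB#2. The difference between the pairs had 480, 542, 565 and 381 in the same order. With normexp D had 484. Other settings have no such count in this section.

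The median of the set moved to -0.23 within slide 2 in D, where it ran from -0.02 to 0.26 with 1 array left out. In DB#1 it moved to 0.067 with quantile normalization, 0.31 within slide 2, 0.028 within slide 3 and between 0.051 and 0.21 with 1 array left out. In DB#2 it was 0.30 without scaling and 0.40 within slide 2, in DB#3 0.068 with quantile normalization, in DB#2 against D 0.58 within slide 2, and in M against M0 -1.10 within slide 1. Without scaling the median of all genes was 0.17 in D, 0.11 in DB#1, 0.25 in DB#2 and 0.17 in J365, and changes are relative to it.

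The replicate block, with the unnumbered arrays left out, gave 3, 4, 3 and 2 calls in D, DB#1, DB#2 and DB#3 against M, 5 in DB#2 against D, 0 in J365 against M0, 31 in M against M0, 0 for the difference between the pairs and 5 among the melanoma lines. Except in DB#1 against M, same-numbered arrays of different lines did not meet the rule for pairs and were not taken as such. Deviations correlated between -0.79 and 0.91 over all 18 pairs, 7 of them above 0.1. In DB#1 the block kept both calls and added Pfkfb3 and Pfkp.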
